A study of Mus musculus with 27 samples.

Results

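The step from 30 to 60 min of caged food was followed in the liver of fasted mice. It was measured in 6 of the 27 libraries of the series, the 3 livers taken at 60 min set against the 3 taken at 30 min, chosen by their column titles. All 27 libraries came from wild-type mice of the strain given as C57/BLN6, each fasted for 16 h. The fasted group had only been fasted, the refed groups had then eaten for 30, 60, 120 or 240 min, and the caged food groups had for the same times been presented with food that was caged, so that it could be perceived and not eaten. Each of the 9 groups held 3 livers, which the design text calls biological replicates. Livers at 30 and 60 min came from different animals, so a step is a difference between groups and not a change within a mouse. Sex and age were not given in the sources used here. The questions that follow from the design are which liver transcripts differed between 30 and 60 min of caged food, and whether the same step differed when food was eaten.

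As background, the liver of a fasted mouse makes glucose and ketone bodies under the influence of glucagon, glucocorticoids and low insulin. Seeing and smelling food can alter autonomic and hormonal signals to the liver before any nutrient is absorbed. Transcripts of early response genes and signalling inhibitors are short-lived and can rise and fall within an hour, whereas most metabolic enzymes are encoded by more stable transcripts.

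The values were read counts per gene that the authors had divided by a factor for each library and rounded. They summed to between 41.9 and 50.04 M in the 6 libraries, and the number of reads behind them is unknown. Hepatocyte transcripts dominated, with albumin (Alb) at 2715258 to 4761810. Among 15932 genes tested, caged food replicate 1 at 30 min and replicate 2 at 60 min stood apart on the second principal component, at -35.7 and -35.9, whereas the other 4 lay between -5.96 and 18.5. The marker genes of neutrophils and monocytes, 13 in number, summed to 2514 in replicate 2 at 60 min and to between 136 and 504 in the other 5 libraries. In that library S100a8 stood at 335, Mpo at 93 and Ly6g at 3. Kupffer cell markers summed to 56001 there, against 24691 to 38550 in the other 5. In replicate 1 at 30 min sinusoidal endothelial markers summed to 51296, against 36339 to 40847 in the other 5. Pericentral hepatocyte markers summed to 488289 in that 30 min library, against 646113 to 844011. In bulk tissue, more cells of a type and more RNA per cell cannot be told apart.

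**Figure D1:**
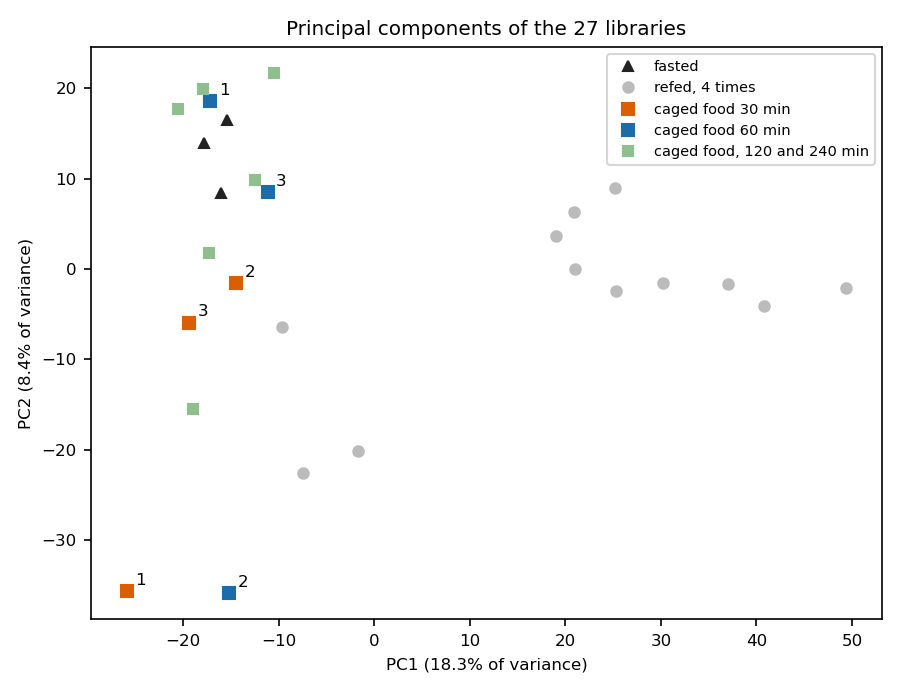
Principal components 1 and 2 of the 27 libraries, on log2(value + 1) of the genes tested, with the share of variance on each axis. Caged food livers at 30 min (orange) and 60 min (blue) carry their replicate numbers, and 1 library of each lies near -36 on the second component.

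Few genes passed the test in this step. With limma on log2(value + 1), 27 of 15932 genes (0.169%) had an adjusted p under 0.05 (Benjamini-Hochberg over all genes tested), of which 13 (0.0816%) were higher and 14 (0.0879%) lower at 60 min. The libraries of the groups did not overlap for 27 of these 27 genes, against 11.5% of all genes tested. The call rests on the same libraries, so this describes the genes and is not separate support. At an unadjusted p under 0.05 there were 1683 genes (10.6%), 965 higher (6.06%) and 718 lower (4.51%), and the median log2 difference of all genes was 0.0094. The count depended on how the spread was estimated and on single libraries. It was 0 by limma without both libraries standing apart, where 1460 genes had an unadjusted p under 0.05. All 27 genes kept their direction there, which was fixed in advance because their groups do not overlap. All had an unadjusted p under 0.05 by limma there, with adjusted p from 0.107 to 0.311. The libraries that remained had also served to choose these genes, so this too is not separate support. The number of genes called was 1, a lower gene, when the spread came from these 6 libraries alone. It was 0 when the pair of 240 min libraries with conflicting labels, which enter only the shared spread, was grouped by the treatment label. Leaving out caged food 30 min replicate 1 gave 10 higher and 4 lower genes, 30 min replicate 3 gave 2 and 8, 60 min replicate 1 gave 3 and 5, and 60 min replicate 3 gave 8 and 9.

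Values below are the deposited normalised read counts of replicates 1, 2 and 3 in that order, and each log2 difference is given with its standard error from limma (n = 3 against 3). Adjusted p is from limma over the 15932 genes tested.

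The largest rise among named genes that passed the test was in Arrdc3, an alpha-arrestin that takes part in the internalisation of membrane receptors (chr13:80883384-80896042, GRCm38, plus strand). It stood at 1117, 5297 and 2266 at 30 min and at 12441, 9540 and 11385 at 60 min. Every library at 60 min was above every library at 30 min, and the log2 difference was 2.22 ± 0.41 (adjusted p = 0.021), a 4.65-fold rise. The fasted livers held 5986, 2801 and 5974, so replicates 1 and 3 at 30 min lay below all of them. Without both libraries standing apart the log2 difference was 1.78.

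Ip6k2, a kinase that makes the inositol pyrophosphate signalling molecule IP7, rose from 2170, 2110 and 2272 to 3786, 5544 and 4520. The 30 min libraries were close together and near the fasted values of 2005, 2270 and 1416. The log2 difference was 1.06 ± 0.16 (adjusted p = 0.0109). Zfp36 encodes tristetraprolin, which promotes the decay of mRNAs with AU-rich elements. It stood at 5363, 2520 and 3612 at 30 min and at 6450, 8207 and 7021 at 60 min, and rose by a log2 of 0.98 ± 0.20 (adjusted p = 0.0373). The groups did not overlap, and replicate 1 at 30 min was nearest to the later group.

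Ints6, a subunit of the Integrator complex that acts on RNA polymerase II transcripts, was at 701, 767 and 641 at 30 min and at 1196, 1155 and 1232 at 60 min. Its log2 difference was 0.77 ± 0.13 (adjusted p = 0.0109), with little spread in either group. Pfkfb1, the liver form of the enzyme that makes and breaks down fructose 2,6-bisphosphate and so steers glycolysis against gluconeogenesis, was at 1170, 1532 and 1453 and then at 2294, 2218 and 2219. It rose by a log2 of 0.70 ± 0.14 (adjusted p = 0.027). Susd6, a membrane protein with a sushi domain, was at 3212, 3296 and 3198 and then at 4852, 4675 and 4797, again with libraries close together within each time.

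The other 5 named rises were small, with log2 differences from 0.34 to 0.53. Gne, which catalyses the first steps of sialic acid synthesis, was at 6548, 6114 and 5843 and then at 8923, 10268 and 7697. Hspb8, a small heat shock protein that works in chaperone-assisted autophagy, was at 7346, 8205 and 8101 and then at 10108, 13269 and 10697. Ticam1 encodes the toll-like receptor adaptor TRIF, Ccar1 a coactivator of transcription, and Kansl1 a subunit of the NSL histone acetyltransferase complex. Kansl1 had the smallest difference, 0.34 ± 0.06 (adjusted p = 0.0147). The 2 other genes that rose lie outside the rule for named genes and are named because they were called: D230025D16Rik by 0.56 and 1700023H06Rik by 2.97, the latter from 3, 22 and 7 to 83, 75 and 54. 1700023H06Rik (chr13:80884224-80885524, minus strand) lies within the span of Arrdc3 on the other strand, so these rises are not from separate loci.

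**Figure D2:**
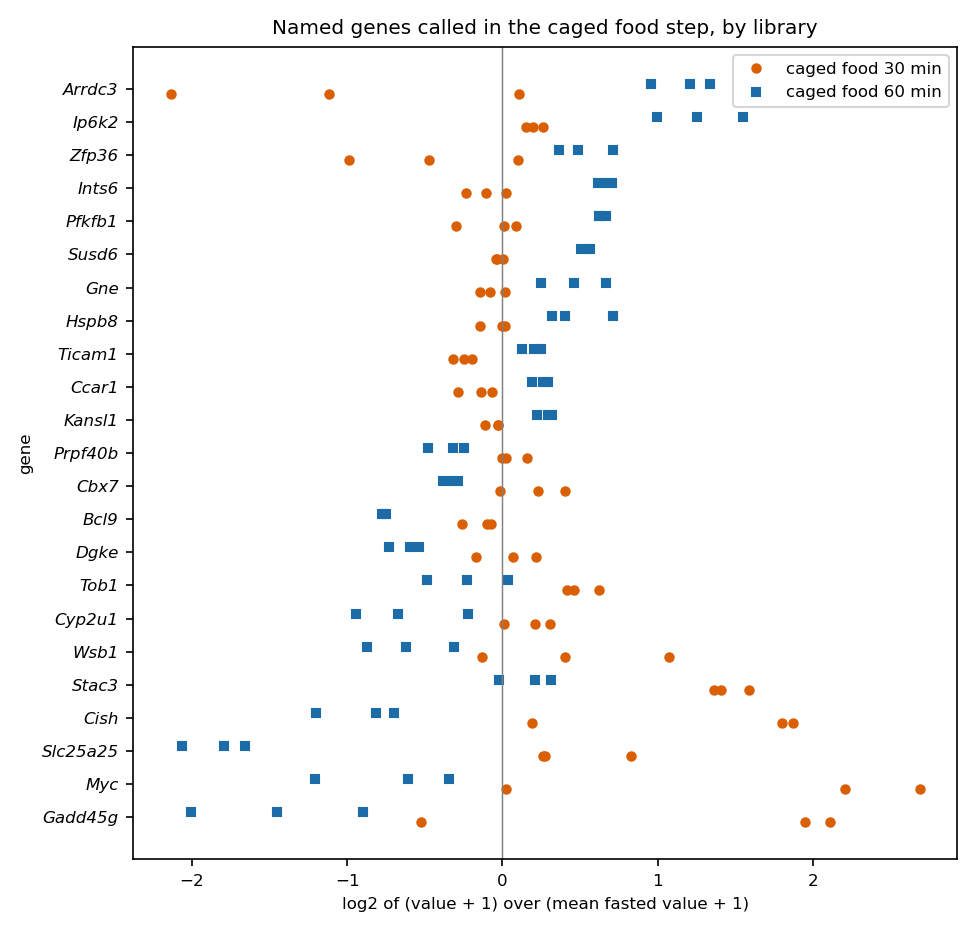
Each gene's value in the 3 livers at 30 min (orange circles) and 60 min (blue squares) of caged food, as log2 of (value + 1) over (mean fasted value + 1), for the 23 named genes that passed the test. The groups do not overlap for any of them, which was a condition of being named. For Gadd45g, Myc and Cish 1 circle each lies far to the left of the other pair.

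Of the named genes that passed, those with the largest falls were Gadd45g, Myc, Slc25a25 and Cish. Gadd45g, a member of a family induced by growth arrest and stress (chr13:51846678-51848468, plus strand), stood at 5586, 901 and 4996 at 30 min and at 321, 693 and 473 at 60 min. The log2 difference was -2.63 ± 0.50 (adjusted p = 0.0246). Myc, a transcription factor of growth, was at 1918, 302 and 1372 and then at 128, 234 and 194, with a log2 difference of -2.36 ± 0.49 (adjusted p = 0.0489). Cish, an inhibitor of cytokine and growth hormone receptor signalling of the SOCS family, was at 1392, 455 and 1463 and then at 245, 226 and 173, with a log2 difference of -2.19 ± 0.37 (adjusted p = 0.0109). For all 3, replicate 2 at 30 min was far below the other pair. Its values lay near the fasted means of 1295 for Gadd45g, 297 for Myc and 399 for Cish. Without that replicate the log2 differences were larger, and without replicate 1 or 3 at 30 min they were smaller: over the libraries left out in turn and the other alternatives they ran from -3.48 to -1.84 for Gadd45g, from -3.17 to -1.57 for Myc and from -2.74 to -1.56 for Cish.

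Slc25a25, a calcium-regulated carrier that exchanges ATP-Mg for phosphate across the inner mitochondrial membrane (chr2:32414487-32451445, minus strand), fell to a narrow range. It was at 28468, 19215 and 19359 at 30 min and at 5076, 4621 and 3832 at 60 min, with a log2 difference of -2.29 ± 0.39 (adjusted p = 0.0122). At 120 min it was back at 16620, 19435 and 24915. The fasted livers held 9452, 19588 and 19022, all above the 60 min libraries. Stac3, known from calcium coupling in muscle and low in liver, was at 61, 69 and 59 at 30 min and at 26, 28 and 22 at 60 min (log2 difference -1.28 ± 0.21, adjusted p = 0.0109). Its 30 min libraries were above all 12 other fasted and caged food libraries, which lay between 19 and 30. Refed livers had a like fall, from 56, 56 and 48 at 30 min to 28, 32 and 25 at 60 min. The difference between the steps did not pass (-0.39 ± 0.29, adjusted p = 0.687 by limma).

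Bcl9, a coactivator of beta-catenin in Wnt signalling, was at 659, 647 and 578 and then at 407, 404 and 412 (log2 difference -0.62 ± 0.10, adjusted p = 0.0109). Here the 60 min livers were low: the fasted livers held 678, 734 and 665, and the livers at 120 min held 690, 721 and 775. Dgke, a diacylglycerol kinase, was also lowest at 60 min, with 197, 219 and 167 at 30 min, 124, 129 and 113 at 60 min and 166, 195 and 203 in the fasted livers (-0.66 ± 0.13, adjusted p = 0.0334). Tob1, an antiproliferative protein that recruits the mRNA deadenylase complex, was at 6535, 6315 and 7305 and then at 4852, 3387 and 4038 (-0.73 ± 0.13, adjusted p = 0.0147), beside a fasted mean of 4742.

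The other named falls were Wsb1, a substrate receptor of a ubiquitin ligase (log2 difference -1.05), Cyp2u1, a fatty acid hydroxylase (-0.79), Cbx7, a Polycomb protein (-0.54), and Prpf40b, a splicing factor (-0.41). Wsb1 was uneven at 30 min, with 4841, 2108 and 3046, and was at 1499, 1856 and 1261 at 60 min. AI606181 (-0.81) and Gm28582 (-1.83) also fell; they lie outside the rule for named genes and are named because they were called.

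At 120 min most of the called genes lay on the 30 min side again. Of the 13 genes that rose, the mean lay on the 60 min side of the midpoint between the 30 and 60 min means for 4 at 120 min, for 0 at 240 min and for 1 in the fasted livers. Of the 14 that fell, it did so for 4 at 120 min, 7 at 240 min and 7 in the fasted livers. The midpoint comes from the groups that chose these genes, so the counts describe them and test nothing. Ip6k2 was at 1679, 1647 and 1642 at 120 min, below each 60 min library. Pfkfb1 was at 1973, 2129 and 1865 at 120 min and at 1561, 1507 and 1472 at 240 min.

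**Figure D3:**
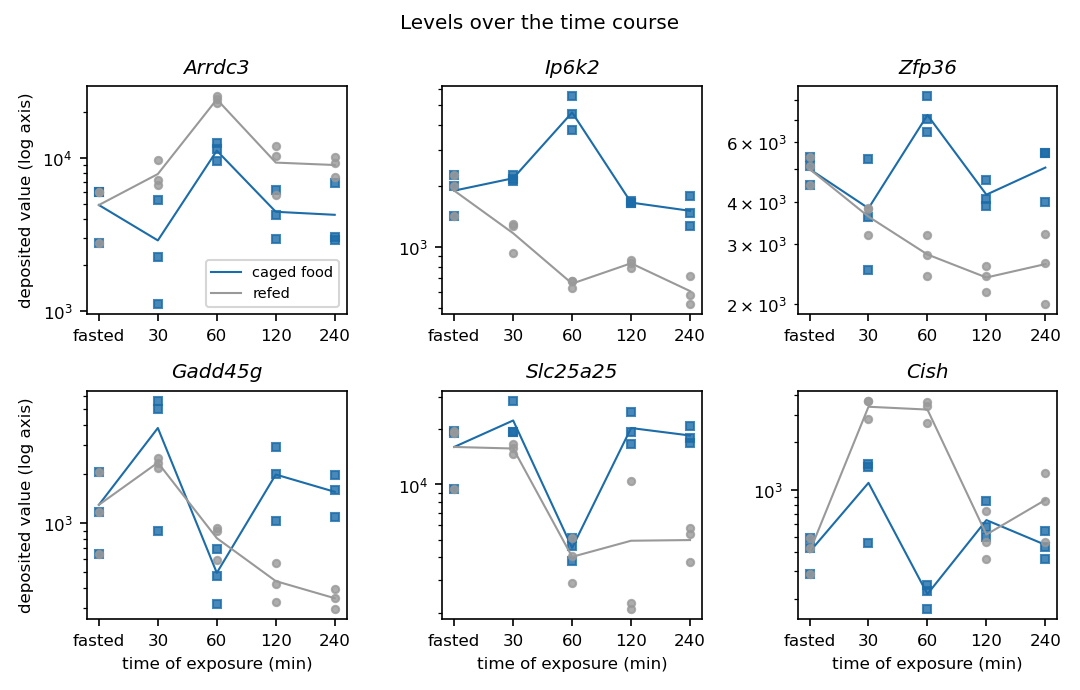
Deposited values (log axis) of 6 named genes in fasted livers and at 30, 60, 120 and 240 min of caged food (blue squares) or refeeding (grey circles), each point 1 liver and each line the group mean. Under caged food the 60 min point is the highest for Arrdc3, Ip6k2 and Zfp36 and the lowest for Gadd45g, Slc25a25 and Cish.

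Sequences around the start of these genes were examined for short motifs. The 300-base windows of RefSeq (GRCm38.p6), 250 bases before to 50 after a start, were present for 21 of the 27 called genes, 12 higher and 9 lower. In all, 11 motifs were searched on both strands. The cAMP response element TGACGTCA was in windows of 2 of 9 lower genes and 0 of 12 higher genes, beside 3.45% of 11172 tested genes and 1.79% of all 32851 windows. Its shorter core TGACG, which every full element also holds, was in 6 of 9 and 3 of 12, beside 33.5% of tested genes. The STAT motif TTCNNNGAA was in 1 of 9 and 2 of 12, beside 8.54%, the E-box CACGTG in 3 of 9 and 2 of 12, beside 11.2%, and a degenerate NF-kB motif in 9 of 9 and 11 of 12, beside 70.7%. The other 6 (FOXO GTAAACA, AP-1 TGACTCA, EGR GCGTGGGCG, and the heat shock, glucocorticoid and ER stress response elements) were in none of these 21. The stretches below were picked after their matches were seen, to show where the letters lie, and a match is a description and not a bound site. Capitals mark the match. For Slc25a25 (chr2:32424067-32424316, minus strand) and Wsb1 (chr11:79254696-79254945, minus strand) the 250 bases before a start are given, with the element beginning 150 and 38 bases before it. Slc25a25 has 3 such windows, and this one belongs to a start inside the gene as annotated above, downstream of the other two. Wsb1 has 2 windows, and this one is the upstream of them. For Cish (chr9:107296654-107296683, plus strand) 30 bases hold both STAT matches of its 1 window. They begin 0 and 11 bases after the start that this window surrounds. That start lies inside the gene as annotated (chr9:107296026-107302784).
Slc25a25: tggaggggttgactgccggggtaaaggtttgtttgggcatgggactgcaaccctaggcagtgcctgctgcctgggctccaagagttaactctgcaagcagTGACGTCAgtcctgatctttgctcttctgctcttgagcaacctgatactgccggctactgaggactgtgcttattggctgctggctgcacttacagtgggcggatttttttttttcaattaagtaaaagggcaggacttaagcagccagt
Wsb1: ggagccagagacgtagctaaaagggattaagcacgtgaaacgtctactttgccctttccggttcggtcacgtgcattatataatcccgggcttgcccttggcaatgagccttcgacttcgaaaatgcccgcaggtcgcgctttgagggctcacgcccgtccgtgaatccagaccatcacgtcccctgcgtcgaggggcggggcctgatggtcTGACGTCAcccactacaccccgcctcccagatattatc
Cish: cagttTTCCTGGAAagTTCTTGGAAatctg

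Gene groups were described by their counts and medians beside those of all genes, of which 52% had a positive difference, 6.06% were higher at an unadjusted p under 0.05 and 4.51% lower. Of 42 gene groups, 36 had 0 members that passed the test, and 6 had at least 1, beside 0.169% of all genes tested. With so low a share, 0 members passing does not set a group of this size apart from all genes. Among immediate early genes, the first transcripts induced by a stimulus, Zfp36 rose and Myc fell. At an unadjusted p under 0.05, 3 of 33 were higher and 7 lower, and the median log2 difference was -0.17. Nr4a1, an orphan nuclear receptor of this group, stood at 258, 323 and 341 at 30 min and at 102, 130 and 81 at 60 min, beside 94 to 96 in fasted livers. Its groups did not overlap, and the log2 difference of -1.57 ± 0.40 did not pass (adjusted p = 0.108). Sik1, a kinase that restrains cAMP signalling, had -1.74 ± 0.44 (adjusted p = 0.108) and Fos -1.24 ± 0.42 (adjusted p = 0.25). Egr1 was at 853, 742 and 489 and then at 474, 909 and 349, with overlap.

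Genes of protein folding and export in the endoplasmic reticulum had log2 differences above 0 in most members. Of them 0 passed the test, beside 0.169% of all genes. Among ER chaperones and folding factors 28 of 29 were positive, beside 52% of all genes, 15 were higher at an unadjusted p under 0.05, beside 6.06%, and the median was 0.36. Hspa5, the main ER chaperone BiP, was at 24156, 25360 and 25047 at 30 min and at 34443, 54080 and 31038 at 60 min (0.64 ± 0.22, adjusted p = 0.266). Calr was at 23653, 27559 and 28477 and then at 34310, 57593 and 32304, so replicate 2 at 60 min was the highest for both, and Dnajb9 and Canx had log2 differences of 0.56 and 0.31. Without both libraries standing apart the median of the group was 0.16. In that fit 0 of its members had an unadjusted p under 0.05 by limma, beside 1460 of 15932 genes. For ER-associated degradation the median was 0.19 over 23 genes, with 22 positive, and for ER translocation and COPII coat genes 0.18 over 37 genes, with 36 positive. Without both libraries these medians were 0.17 and 0.10. Ddit3, the transcription factor CHOP, was at 274, 328 and 267 and then at 380, 565 and 538 (0.75 ± 0.21, adjusted p = 0.142). Sdf2l1, an ER stress gene, was at 567, 2055 and 857 at 60 min, Xbp1 had 0.21 ± 0.11, and Chac1, a target of the integrated stress response, had 1.15 ± 0.58.

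Acute phase genes, which encode plasma proteins made in inflammation, had the highest median of the gene groups, 0.63 over 30 genes, with 28 positive, beside 52% of all genes, and 18 higher at an unadjusted p under 0.05, beside 6.06%. The median rested on 1 library: relative to the fasted mean, the median over the group was 1.74 in replicate 2 at 60 min and 0.27 and 0.05 in replicates 1 and 3. Saa1 stood at 92023 there, against 1200 and 2946 in replicates 1 and 3. Lcn2 was at 32456 there, against 563 and 808. Without both libraries standing apart the median was 0.19. In that fit 1 gene was higher at an unadjusted p under 0.05 by limma, beside 1460 of 15932 genes in either direction. Without replicate 2 at 60 min alone the median was 0.13. This is also the library with high neutrophil and Kupffer cell markers, and their part in the values was not tested. Il1r1 (0.91), Saa4 (1.19) and Cp (0.59) had non-overlapping groups with replicate 2 highest at 60 min and did not pass. Il6ra, the interleukin 6 receptor, was at 4006, 3869 and 3487 and then at 6063, 5342 and 5497, without such a high library (0.57 ± 0.19, adjusted p = 0.236).

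**Figure D4:**
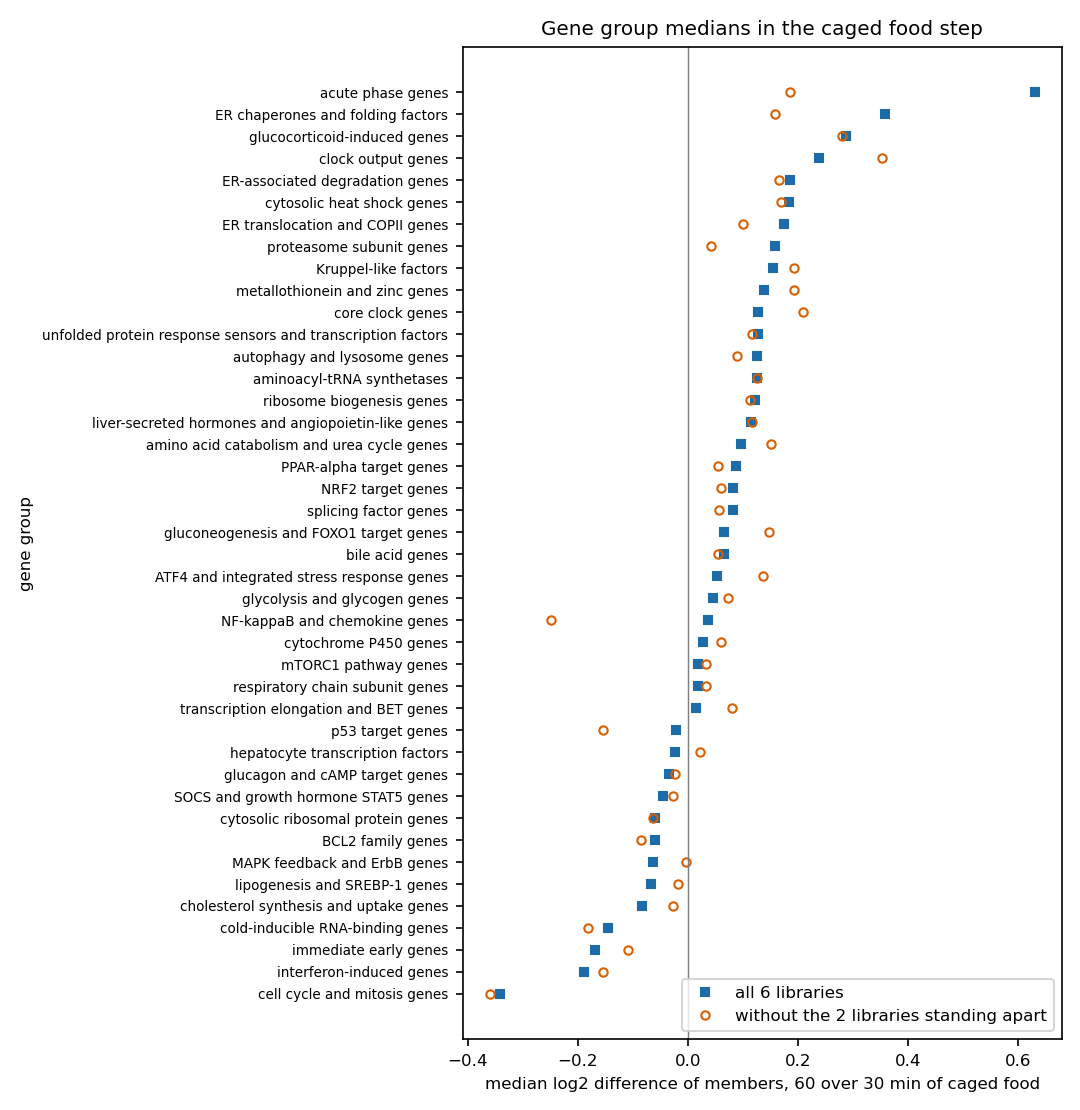
Median log2 difference of the members of each of the 42 gene groups between 60 and 30 min of caged food, with all 6 libraries (blue squares) and without caged food 30 min replicate 1 and 60 min replicate 2 (orange circles). The acute phase median goes from 0.63 to 0.19 and that of ER chaperones from 0.36 to 0.16. That of glucocorticoid-induced genes is 0.29 and 0.28, where the library left out at each time had the highest group median of its time.

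Among 23 glucocorticoid-induced genes Arrdc3 rose, 6 were higher and 1 lower at an unadjusted p under 0.05, beside 6.06% and 4.51% of all genes, and the median was 0.29. Lcn2, described above with its high value in replicate 2 at 60 min, was among the 6. Without both libraries standing apart 3 were higher and 0 lower, beside 1460 of 15932 genes in either direction in that fit. The medians of single libraries overlapped: relative to the fasted mean they were 0.35, 0.064 and -0.0028 at 30 min and 0.24, 0.58 and 0.37 at 60 min. Fkbp5, a cochaperone of the glucocorticoid receptor, was at 3618, 4505 and 3346 and then at 7654, 4032 and 8319, overlapping through replicate 2 (0.74 ± 0.23, adjusted p = 0.203). Sult1e1, a sulfotransferase of oestrogen, was low, at 8, 35 and 5 and then 42, 34 and 42. The 14 clock output genes had a median of 0.24 and 0 members that passed, beside 0.169% of all genes. Rgs16, a regulator of G protein signalling, was at 215, 223 and 297 and then at 2093, 680 and 712 (2.05 ± 0.62, adjusted p = 0.197). Lpin1, a phosphatidate phosphatase, had 1.58 ± 0.52, Por, the electron donor of cytochrome P450, 0.43 ± 0.11 (adjusted p = 0.096), and Tspan4 0.40. Per1 and Dbp had -0.33 and 0.29 with overlapping groups. The cold-inducible Cirbp was at 1811, 1829 and 1891 and then at 1451, 1606 and 1511 (-0.28 ± 0.13, adjusted p = 0.453).

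Of 27 gluconeogenesis and FOXO1 target genes 1 passed, Tob1, and of 32 glycolysis and glycogen genes 1 passed, Pfkfb1, beside 0.169% of all genes. G6pc, the last enzyme of glucose release, was at 21226, 23027 and 25575 and then at 22309, 20459 and 18430 (-0.19 ± 0.28). Pck1, a rate-controlling enzyme of gluconeogenesis, had 0.07 ± 0.26 and Igfbp1, an insulin-repressed binding protein of insulin-like growth factors, -0.23 ± 0.57. Srebf1 had -0.22, Ppargc1a 0.49 and the metallothionein Mt1 0.53. Fgf21, a hormone of the fasted liver, was at 92, 92 and 108 and then at 257, 161 and 429, without overlap (1.42 ± 0.59, adjusted p = 0.378 by limma). The fasted livers held 334, 183 and 206 of Fgf21, all above the 30 min livers and overlapping those at 60 min. Cell cycle genes, low in liver, had a median of -0.34 over 32 genes with 0 that passed. Ccne1 (-0.72), Cdk1 (-0.81), Rrm2 (-0.39) and Cdc20 (-1.18) had the lowest p among them. Jun and Hspa1b had -0.57 and 0.24 with overlap.

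None of the 13 marker lists had a member that passed, beside 0.169% of all genes. With so low a share, this does not show that the mix of cells was alike. Pericentral hepatocyte markers had a median of 0.25 over 12 genes, which was -0.010 with quantile normalization and 0.14 without both libraries standing apart. Relative to the fasted mean, the list median was -0.34, 0.10 and -0.0043 at 30 min and 0.11, -0.22 and 0.16 at 60 min. It was thus lowest in replicate 1 at 30 min. Among these markers Slc1a2 was at 0.48 and Oat at 0.50, with Lect2 at 0.32 and Axin2 at -0.57. Neutrophil and monocyte markers had a median of 0.76 with all libraries and -0.30 without both that stood apart, and S100a9 was at 734 in replicate 2 at 60 min and at 16 and 37 in the other pair. The others named by the rule from this list were Retnlg (0.87), Chil3 (1.06) and Ly6c2 (-0.56). Of the pancreatic acinar markers, Ctrb1 was at 92, Pnlip at 38 and Cela3b at 20 in replicate 2 at 30 min and between 0 and 3 in the other 5 libraries, while Ctrl was at 7 to 24 throughout. The 2 adipocyte markers tested had a median of -0.24, which was 0.33 without both libraries standing apart, and the 4 muscle markers tested had -0.26 and -0.39. Of these, Car3, Fabp4, Des and Mylpf had differences from -0.51 to 0.02, Tagln had -0.38, and Myh11 had -0.85.

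The step under refeeding was measured in 6 other livers, so the difference between the steps rests on 4 groups that share no sample. From 30 to 60 min of refeeding 929 genes (5.83%) were called, 539 higher (3.38%) and 390 lower (2.45%). The difference between the steps was called for 112 genes (0.703%), 78 more positive (0.49%) and 34 more negative (0.213%) under caged food. These counts too depended on the shared spread: with the 240 min libraries grouped by the treatment label the difference was called for 1 gene in each direction and the refed step for 242 genes, and with only the groups compared for 39 and 11 genes and for 326. Leaving out caged food 30 min replicate 3, 60 min replicate 1, or refed 30 min replicate 1 or 3 gave 39 to 45 more positive and 18 to 20 more negative genes. Of the 23 named genes, 4 were among them, and for the other 19 no difference was established. The 23 were chosen by the caged food step, which is also a term of the difference, so this count carries that choice.

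Ip6k2 rose under caged food and fell under refeeding, where it was at 1296, 934 and 1274 at 30 min and at 624, 676 and 676 at 60 min. The refed step was -0.81, and the difference between the steps was 1.87 ± 0.22 (adjusted p = 0.000294). Gne was at 6865, 6070 and 5875 and then at 3757, 4973 and 4680 in refed livers, and its steps differed by 1.03 ± 0.15 (adjusted p = 0.000757). Zfp36 had a refed step of -0.38 that did not pass, and its steps differed by 1.35 ± 0.28 (adjusted p = 0.0194). Cyp2u1 differed by -1.11 ± 0.23 (adjusted p = 0.0216), with refed values of 960, 1047 and 1044 and then 1729, 1190 and 992.

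For the other named genes the difference between the steps did not pass. Slc25a25 fell in refed livers from 16602, 14656 and 15876 to 2915, 4075 and 5095, and the difference between the steps was -0.29 ± 0.55 (adjusted p = 0.907). Arrdc3 rose in both, with a refed step of 1.63 and a difference of 0.58 ± 0.58 (adjusted p = 0.787), and refed livers were higher at both times. Ints6 had steps of 0.77 and 0.71, with a difference of 0.06 ± 0.18 (adjusted p = 0.956). Tob1 and Wsb1 fell in both, with refed steps of -0.95 and -1.18. A difference that did not pass is not shown to be absent: Bcl9 had -0.49 ± 0.14 (adjusted p = 0.126), Susd6 0.42 ± 0.14 (adjusted p = 0.207) and Pfkfb1 0.56 ± 0.19 (adjusted p = 0.238). Cish fell under caged food and was at 3665, 3670 and 2813 and then at 2654, 3644 and 3435 in refed livers, a step of -0.06, and the difference of -2.13 ± 0.52 just missed the threshold (adjusted p = 0.0518).

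**Figure D5:**
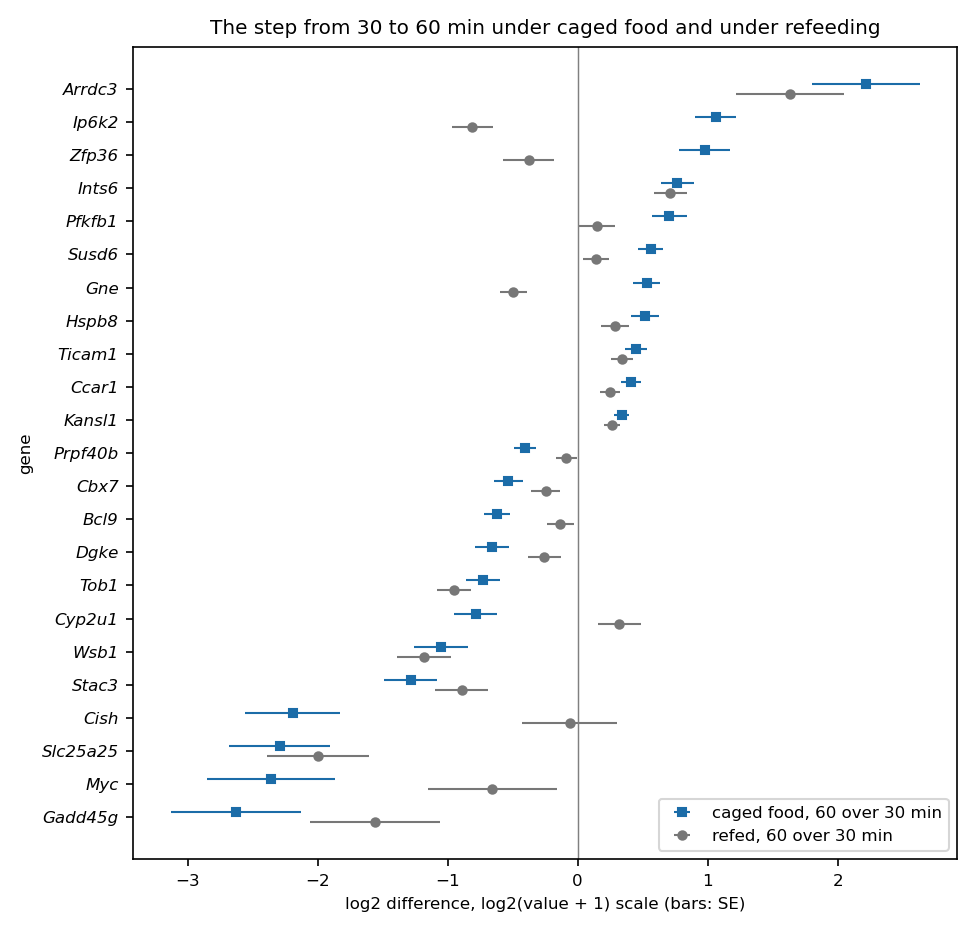
Log2 difference from 30 to 60 min under caged food (blue squares) and under refeeding (grey circles) for the 23 named genes, with bars of 1 standard error from limma, 3 livers in each group. Ip6k2 and Gne lie on opposite sides of 0 in the 2 steps, at 1.06 and -0.81 and at 0.53 and -0.50.

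The 5 largest called differences between the steps, under the rule for named genes, were in Igfbp1, Onecut1, G6pc, Irs2 and Angptl4, which did not pass in the caged food step and did in the refed step. Igfbp1 was at 14412, 7363 and 11101 and then at 5769, 21143 and 5979 under caged food. Replicate 2 at 60 min, a library standing apart, was the highest, and the other 60 min livers lay below all 30 min livers. Without both libraries standing apart the caged food step was -0.62. Under refeeding Igfbp1 fell from 5304, 2768 and 6505 to 831, 190 and 147, and its steps differed by 3.77 ± 0.80 (adjusted p = 0.024 by limma). G6pc fell from 17431, 15185 and 25254 to 3436, 2005 and 1700, and its steps differed by 2.86 ± 0.39 (adjusted p = 0.000418). Irs2, an insulin receptor substrate, differed by 2.26 ± 0.36, and Angptl4, an inhibitor of lipoprotein lipase, by 1.95 ± 0.32. Onecut1, a hepatocyte transcription factor, went the other way. It was at 659, 355 and 452 and then at 222, 178 and 182 under caged food (-1.29 ± 0.31, adjusted p = 0.0765), whereas in refed livers it rose from 814, 1640 and 668 to 3657, 4278 and 3370. The difference between the steps was -3.25 ± 0.44 (adjusted p = 0.000418).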

How the data were processed

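Reads of stranded polyadenylated liver RNA were aligned to mm10 (GRCm38) with STAR 2.4.0a and counted with featureCounts 1.4.5-p1, per the submitters' processing notes. The deposited score is a read count per gene that the authors divided by a factor for each library and rounded, so no count model was used. Attempts to recover those factors from low values returned 4 of 6 simulated factors within 5%, so no depth is given and precision rests on the spread between livers. The 15932 of 45706 genes that reached 10 in 3 or more of 27 libraries were taken as log2(value + 1). Limma 3.58.1 with a mean-variance trend (R 4.3.3) was fitted to 9 group means, with Benjamini-Hochberg adjustment. On simulated data for the caged food step, 30 of 67 genes changed 1.5-fold, 42 of 67 changed 2-fold and 62 of 66 changed 4-fold were called, beside 3 unchanged genes of 15726 tested. The simulated errors were independent between genes and no simulated library stood apart, so these shares do not carry over to the livers of the step.

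Libraries were grouped by title, and 2 libraries of 240 min have treatment labels naming the other group. Members and the 55 lists (42 gene groups, 13 of markers, 1244 entries) were chosen with earlier results of these data known. Named were at most 12 rises and 12 falls among called genes without overlap, whose higher group averaged 50 or more, leaving out predicted genes, clones, pseudogenes, chromosome Y and Xist; up to 4 members of lowest p of lists with 2 called members or a median beyond 0.2; the 5 largest differences between steps; and a fixed panel, of which 1 gene is not reported here. Of all identifiers, 45143 matched GENCODE M21, which gave coordinates. Python 3.11.15 with pandas 2.3.3 was used. Alternatives were other scalings, pseudocount, filters, weights, a replicate block, groupings and leave-outs. Those of the refed step were added after seeing the data.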

Additional observations from a re-analysis of the deposited data

Results flagged for a closer look

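For 10 named genes the step from 30 to 60 min differed between caged food and refeeding by a test of the difference itself (limma, adjusted p under 0.05 over all genes tested, 3 livers in each of 4 groups). It was more positive under caged food by a log2 of 3.77 for Igfbp1, 2.86 for G6pc, 2.26 for Irs2, 1.95 for Angptl4, 1.87 for Ip6k2, 1.405 for Il6ra, 1.35 for Zfp36 and 1.03 for Gne. It was more negative by -3.25 for Onecut1 and -1.11 for Cyp2u1. Ip6k2 and Gne passed the test in both steps with opposite directions. Onecut1 and Irs2 were named only for their large difference, so their passing follows from that choice. Igfbp1, G6pc and Angptl4 were named for it and were also in the fixed panel. The other genes were named by their caged food step, which is a term of the difference. With the 240 min libraries grouped by the treatment label, the difference was called for 1 gene in each direction.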

How the results depend on the processing

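All 23 named genes that passed kept their direction in all 17 alternatives. Their groups do not overlap by the rule that named them, so leave-outs, weights, pseudocount or filters could not have reversed a direction. Bcl9, Stac3 and Ip6k2 kept the call in 14, Slc25a25 in 13 and Hspb8 in 4. The caged food step, 13 higher and 14 lower, became 25 higher with a filter at 50, 0 and 1 with only the groups compared, 0 and 0 by the treatment label (limma, 1189 genes at an unadjusted p under 0.05) and 0 and 0 without both libraries standing apart (1460). Leaving out 1 replicate gave 2 to 17 higher and 4 to 18 lower. The difference between steps, 78 and 34, became 39 and 11 with only the groups compared, 1 and 1 by the treatment label, and 60 lower with quality weights. Leaving out 1 replicate gave 39 to 79 higher and 18 to 49 lower. The refed step, 929, became 326 with only the groups compared, 242 by the treatment label and 376 to 812 without 1 replicate. The causes were not tested, beyond fewer livers in some fits.

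Residual correlations gave no sign that replicate numbers pair the livers. For caged food livers at 30 and 60 min with the same number they were -0.133, -0.227 and 0.138. Over all groups the mean was -0.0094 for the same number and 0.0048 for different numbers. With so few livers per group, pairing or a shared batch is not excluded. With a replicate block the caged food step had 15 higher and 14 lower genes, the difference 74 and 33, and the refed step 813.

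Some named genes that did not pass changed sign. With quantile normalization Car3 was at -0.11, Des at 0.026 and Pck1 at -0.19. With quality weights Mylpf was at 0.057, Des at 0.19 and Hspa1b at -0.011. Without both libraries standing apart S100a9 was at -0.39, Fabp4 at 0.037, Des at 0.037, Hspa1b at -0.43, Srebf1 at 0.0074 and Saa1 at -0.078. Leaving out 1 replicate gave -0.51 to 0.72 for Car3, -0.19 to 0.15 for Des, -0.029 to 0.13 for Pck1, -0.35 to 0.25 for Mylpf, -0.27 to 0.63 for Hspa1b, -0.59 to 2.12 for S100a9, -0.85 to 0.095 for Fabp4, -0.11 to 3.02 for Saa1, -1.397 to 0.10 for Ly6c2, -0.85 to 0.090 for Igfbp1, -0.43 to 1.89 for Retnlg, -0.20 to 2.05 for Chil3 and -0.0041 to 0.82 for Mt1. Il1r1 passed only with the replicate block, and Fkbp5 only without caged food 60 min replicate 2.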
